A study of Mus musculus with 7 samples.

Results

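Genes that fatty acids induce in muscle and heart were followed on arrays of the mouse left ventricle: the acyl-CoA thioesterases Acot1 and Acot2, the uncoupling proteins Ucp2 and Ucp3, the dienoyl-CoA isomerase Ech1 and the secreted lipase inhibitor Angptl4. The genes were taken from a list of 6, and every probe set that the platform table assigns to any of them was used. That gave 8 probe sets of 22626 and covered 5 of the 6 genes; Ucp2 was not analysed here. Male mice aged 21 months were compared, 3 labelled as knockouts of endothelial nitric oxide synthase (eNOS, gene Nos3) and numbered M4, M10 and M140, and 4 labelled wild type and numbered M23, M125, M128 and M158. Each mouse gave 1 MOE430A array of left ventricular RNA. The design addressed which transcripts accompany failing heart function in old males without eNOS. The labels name exercise as a keyword but give no exercise state for any mouse. The sources used here give neither strain nor feeding state nor the hour of tissue collection, nor how the knockout allele was made.

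Long-chain fatty acids that enter a cell bind the nuclear receptor PPAR-alpha, which pairs with a retinoid X receptor on DNA and raises transcription of genes for fatty acid use. Acot1 in the cytosol and Acot2 in the mitochondrial matrix cleave acyl-CoA into free fatty acid and coenzyme A, Ucp3 is an inner-membrane carrier whose transcript follows fatty acid supply in muscle, and Ech1 moves double bonds so that unsaturated fatty acids can be oxidised. Angptl4 is secreted and inhibits lipoprotein lipase, which limits further fatty acid uptake. In fasting or on a fat-rich diet transcripts of this kind are known to rise in the mouse heart.

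Promoter sequences from RefSeq (build GRCm38.p6, 250 bases before to 50 after each gene's start) are shown for Acot1 and Ech1, the genes whose groups did not overlap below, and for Ucp3, the one of 5 searched promoters that held the motif; Angptl4 was not searched. The motif was AGGTCA, the half-site that PPAR and its partners recognise, searched on both strands. Capitals mark it.
Acot1, chr12:84009252-84009551, plus strand: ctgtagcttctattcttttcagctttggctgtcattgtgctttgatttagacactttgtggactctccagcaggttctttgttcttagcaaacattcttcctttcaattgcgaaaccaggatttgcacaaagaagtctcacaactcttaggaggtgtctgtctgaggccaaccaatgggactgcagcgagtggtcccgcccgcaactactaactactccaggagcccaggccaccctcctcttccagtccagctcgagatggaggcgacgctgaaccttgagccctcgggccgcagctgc
Ech1, chr7:28825088-28825387, plus strand: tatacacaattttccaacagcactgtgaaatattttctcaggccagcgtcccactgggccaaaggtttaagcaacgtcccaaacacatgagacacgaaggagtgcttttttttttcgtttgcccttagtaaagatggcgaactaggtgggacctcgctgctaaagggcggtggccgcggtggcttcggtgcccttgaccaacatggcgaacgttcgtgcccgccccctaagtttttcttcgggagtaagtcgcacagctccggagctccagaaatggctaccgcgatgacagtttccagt
Ucp3, chr7:100472741-100473040, plus strand: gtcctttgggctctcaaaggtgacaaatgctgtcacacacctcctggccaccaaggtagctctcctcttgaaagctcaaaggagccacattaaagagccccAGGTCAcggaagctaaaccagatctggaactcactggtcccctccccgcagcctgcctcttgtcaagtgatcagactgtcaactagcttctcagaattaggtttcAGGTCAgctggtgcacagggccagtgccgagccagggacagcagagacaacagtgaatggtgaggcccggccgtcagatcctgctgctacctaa
The Ucp3 window held AGGTCA at 2 places on the strand of the gene, starting 149 and 44 bases before the gene start. The windows of Acot1, Acot2, Ucp2 and Ech1 held none, and 16.3% of 32851 promoter windows of the same length held at least 1. The direct repeat of the half-site with 1 base of any kind between the copies, which full PPAR sites resemble, was found in none of the 5 windows and in 0.0396% of all windows. A looser form, with any base at the fourth place of each copy, was found in none of the 5 and in 0.381%. These counts describe letters in the windows. Along the chromosome Acot2 and Acot1 are neighbouring protein-coding genes on chromosome 12, and Ucp3 and Ucp2 are neighbours on chromosome 7.

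The deposited intensities had a median of 671 to 699 per array and an upper limit of 44145 to 45552 that 51 to 104 probe sets had reached on each array. The scanner sheets gave 4 hybridization days, numbered here from the earliest, each with its own chip lot: knockout M140 and wild-type M128 shared day 1, wild-type M125 was alone on day 2, knockout M4 shared day 3 with M10, and the wild-type arrays M158 and M23 shared day 4. All 7 listed markers of heart muscle (Myl2, Myl3, Tnni3, Tnnt2, Myh6, Actc1 and Mb) had reached the upper limit on each array. At that limit they cannot tell the arrays apart. Each was read by its brightest probe set. Arrays differed in atrial transcript and in the Gapdh ratio, read here as a sign of RNA quality. Myl7, the atrial myosin light chain, read 17557 on knockout M10, 16097 and 2926 on the wild-type arrays M125 and M128, and at most 1207 on the other 4. The ratio of 5' to 3' Gapdh control signal was 0.0978 on wild-type M23 and 0.340 on wild-type M158, against 0.52 to 0.777 on the other 5. Per its sheet, the array of M23 combines 2 rounds of processing, and RNA quality was not measured apart from this ratio. Of Nos3, the targeted gene, the probe set read 1145, 1413 and 1135 on the knockout arrays and 791, 1163, 872 and 1058 on the wild-type arrays, and no source used here places it relative to the disrupted exons, so the level does not check the labels. Nothing states more than that these are different mice, and limma's p-values measure the spread between arrays in which mouse and day are mixed.

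No probe set of these genes passed an adjusted p of 0.05 by limma, and none of all 13836 tested probe sets did (0%). Acot1 and Ech1 were the members whose 3 knockout values all lay under the lowest of the 4 wild-type values. Angptl4, Ucp3 on its brighter probe set and the probe set shared by Acot1 and Acot2 were low on all knockout arrays and on at least 1 array of wild-type mice hybridized on day 4, and high on wild-type M125 and M128. Of the 8 probe sets, 6 were bright enough to be tested (above the 40th percentile of their array on at least 3 arrays). The other 2, the one specific to Acot2 and a second one of Angptl4, were dim on all 7 arrays. Of the 6, all had a negative log2 difference, against 50.5% of all tested probe sets. They are not separate observations, as Ucp3 has a pair and the shared probe set also reads Acot1. Of them, 2 had an unadjusted p under 0.05, against 11.8% of all tested probe sets in either direction and 5.25% lower. Knockout arrays lay wholly below the wild-type arrays for 2, against 4.34% of all tested probe sets. None of the 6 had knockout arrays wholly above, against 4.97%, and none had an adjusted p under 0.10, against 0.152%. The number of the 6 with an unadjusted p under 0.05 was 0 without knockout M140, 1 without knockout M4, 4 without wild-type M158 and 5 without wild-type M23. It was 5 with hybridization day as a random block, and 0 of the 6 passed the adjusted threshold there. The share of all tested probe sets at that unadjusted p was not counted under these settings.

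**Figure D1:**
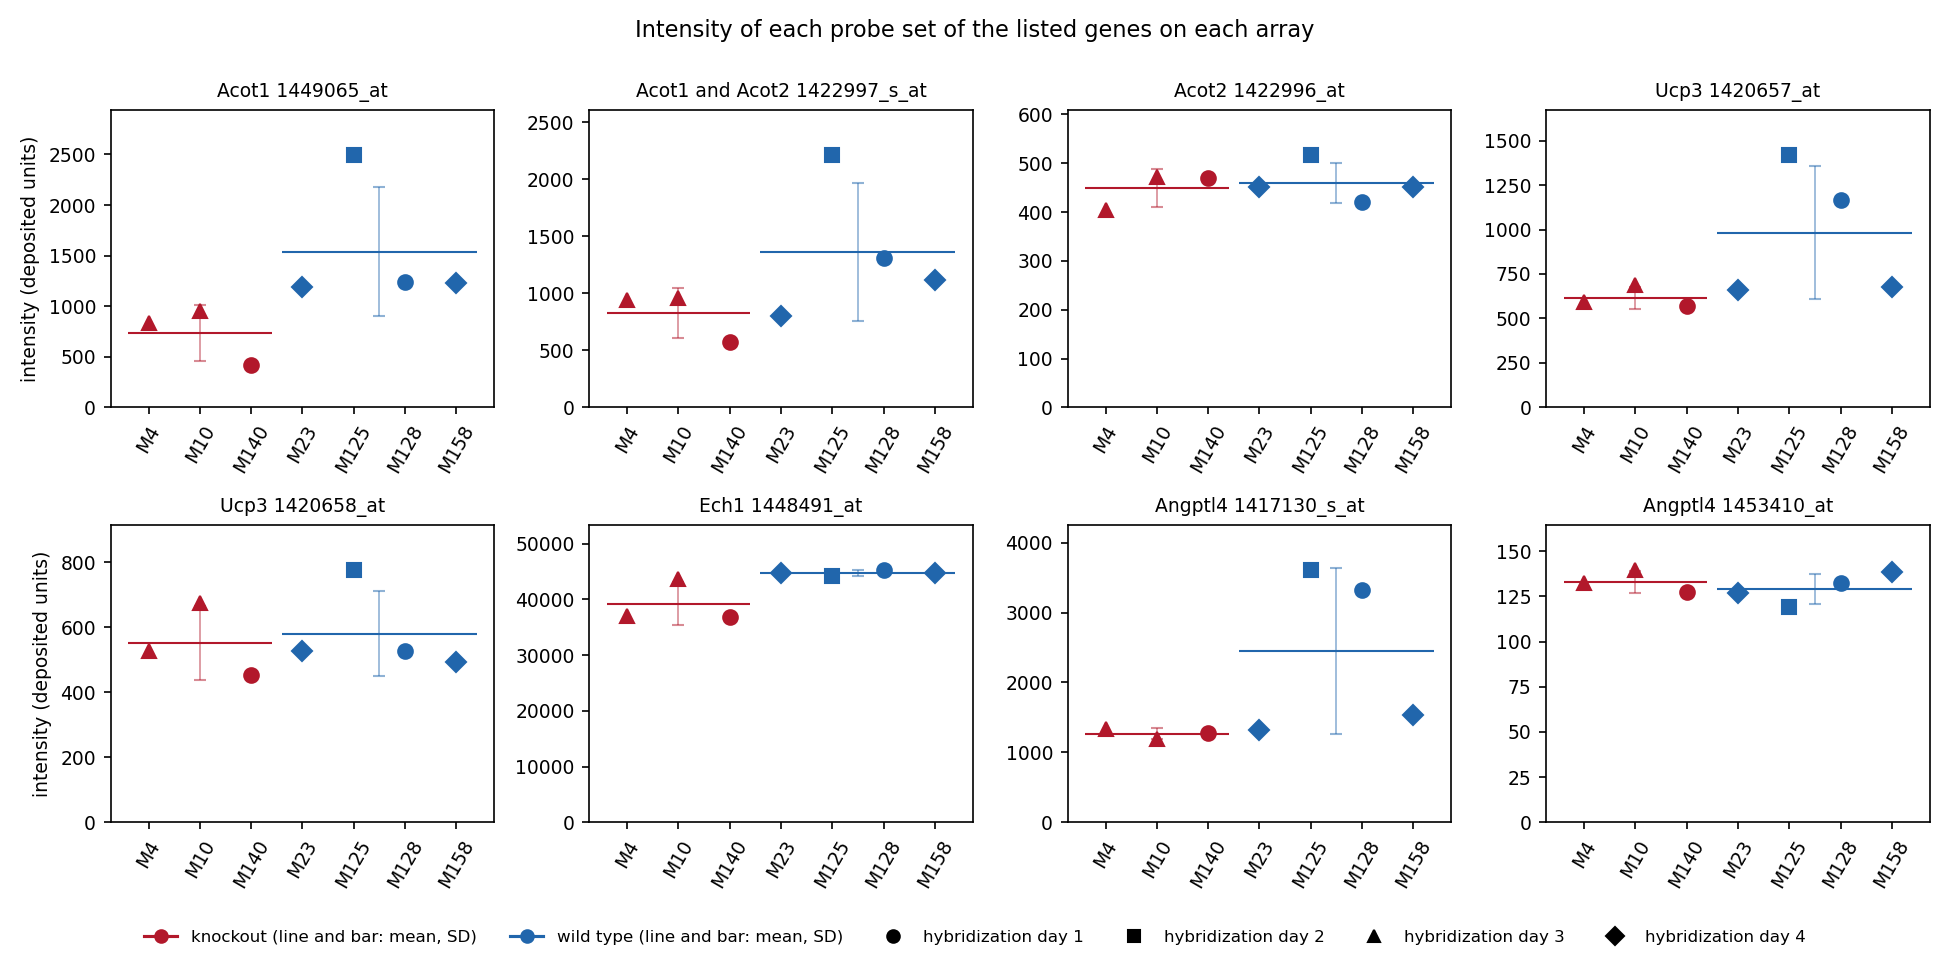
Intensity (deposited units, linear axis from 0) of the 8 probe sets on each of the 7 arrays, knockout in red and wild type in blue, with marker shapes for the hybridization day and lines and bars for mean and SD (n = 3 and 4). Angptl4 1417130_s_at lies between 1190 and 1336 on the knockout arrays, and between 1319 and 3609 on the wild-type arrays, where M125 and M128 stand above M23 and M158.

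Acot1, the cytosolic thioesterase, had the largest log2 difference of the 6 tested probe sets. Its probe set 1449065_at read 835, 954 and 421 on knockout M4, M10 and M140, against 1187, 2493, 1237 and 1231 on M23, M125, M128 and M158 of the wild type. The groups did not overlap. Knockout M140 was lowest by a wide margin, and wild-type M125 stood far above the other wild-type arrays, which lay close together. The value on M140 lay under the 40th percentile of that array (514), the level used for the filter. The means were 736 ± 280 (SD, n = 3) on the knockout arrays and 1537 ± 638 (SD, n = 4) on the wild-type arrays. The log2 difference was -1.05 ± 0.34 (SE, 95% interval -1.84 to -0.26), with limma's adjusted p at 0.315. The exact permutation test (two-sided) gave p = 0.0286, which is the lowest that 35 splits of 7 arrays can give. The log2 difference was -0.70 without knockout M140 and -0.79 without wild-type M125.

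A second probe set, 1422997_s_at, is assigned by the platform table to Acot1 and Acot2 together and cannot separate the neighbouring genes. It read 942, 960 and 573 on knockout M4, M10 and M140 and 799, 2212, 1307 and 1120 on M23, M125, M128 and M158 of the wild type. Here wild-type M23 fell among the knockout values, so the groups overlapped, while M140 was again the lowest array and M125 the highest. The log2 difference was -0.65 ± 0.33 (SE, 95% interval -1.41 to 0.11; adjusted p = 0.497 by limma), and without wild-type M125 it was -0.38. Acot2, the mitochondrial thioesterase, has a probe set of its own, 1422996_at, which stayed below the 40th percentile on all 7 arrays. It read 403, 473 and 469 on the knockout arrays and 451, 517, 421 and 451 on the wild-type arrays. The ranges overlapped, and at this brightness a difference in Acot2 was not detectable.

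Ucp3, the muscle uncoupling protein, had a pair of probe sets that did not give the same picture. The brighter one, 1420657_at, read 594, 686 and 569 on knockout M4, M10 and M140, against 662, 1418, 1168 and 679 on M23, M125, M128 and M158 of the wild type. Wild-type M23 and M158 fell within the knockout range, and M125 and M128 read well above it. Knockout arrays averaged 616 ± 61 (SD, n = 3) and wild-type arrays 982 ± 374 (SD, n = 4), and the log2 difference was -0.59 ± 0.27 (SE, 95% interval -1.20 to 0.029; adjusted p = 0.446 by limma; exact permutation p = 0.2). Without wild-type M125 it was -0.38. The dimmer one, 1420658_at, read 526, 675 and 453 on the knockout arrays and 526, 776, 526 and 495 on the wild-type arrays. M125 and M10 stood above the others there; they are also the arrays with the most Myl7, and the part of atrial tissue in this probe set was not tested. Its log2 difference was -0.07 ± 0.18 (SE, 95% interval -0.49 to 0.35; adjusted p = 0.931 by limma), and it turned positive without knockout M140 (0.060) or without wild-type M125 (0.076).

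Ech1, the peroxisomal and mitochondrial isomerase of unsaturated fatty acid breakdown, read near the top of the scale. Its probe set 1448491_at read 37110, 43708 and 36846 on knockout M4, M10 and M140, against 44818, 44145, 45291 and 44815 on M23, M125, M128 and M158 of the wild type. The wild-type arrays M125 and M128 were at their upper limit and M23 and M158 close to theirs, and no knockout array was at its limit. The groups did not overlap. Knockout M10 came close to the wild-type values. The log2 difference was -0.20 ± 0.06 (SE, 95% interval -0.34 to -0.048), with limma's adjusted p at 0.316 and p = 0.0286 by exact permutation. Since the wild-type values are capped, the difference is understated. It was -0.28 without knockout M10 (adjusted p = 0.0550 by limma). M10 read highest of the knockout arrays, so leaving it out had to enlarge the difference. Without knockout M140 the difference was -0.15 (adjusted p = 0.514 by limma), and without knockout M4 it was -0.16 (adjusted p = 0.880 by limma). With limma's array weights it was -0.24 with an adjusted p of 0.0414, 1 of 619 probe sets past 0.05 among 13836 tested. That fit leaned on knockout M4, with a weight of 3.81 against 0.37 to 1.87 on the other arrays.

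Angptl4, the lipase inhibitor, was read by probe set 1417130_s_at. It gave 1336, 1190 and 1278 on knockout M4, M10 and M140, against 1319, 3609, 3327 and 1541 on M23, M125, M128 and M158 of the wild type. The 3 knockout arrays lay close together. The wild-type arrays split into a pair far above the knockout level and a pair near it. Knockout arrays averaged 1268 ± 73 (SD, n = 3) and wild-type arrays 2449 ± 1186 (SD, n = 4), and the log2 difference was -0.80 ± 0.36 (SE, 95% interval -1.63 to 0.021; adjusted p = 0.436 by limma; exact permutation p = 0.2). Without 1 array it ran between -1.05 (without wild-type M23) and -0.57 (without wild-type M125). The dim probe set 1453410_at read at most 140 on the knockout arrays and at most 138 on the wild-type arrays, near the lowest signals of the scale, and carries no difference.

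The spread among the wild-type arrays was wide for 4 of the 6 tested probe sets. On the log2 scale the wild-type SD of Angptl4 was 0.74, larger than that of 99.3% of all tested probe sets, whose median was 0.17. The shared Acot1 and Acot2 probe set had 0.60 (98.1%), Ucp3 on 1420657_at 0.55 (96.9%) and Acot1 0.51 (96.3%). Ucp3 1420658_at had 0.29 (79.3%). Ech1 stood at the other end with 0.015 (1.10%), with 2 of its 4 wild-type arrays at the upper limit. On the knockout arrays the SD of Angptl4 was 0.083 and that of Ucp3 1420657_at 0.14, near or below the median of 0.13 over all tested probe sets, while Ucp3 1420658_at had 0.28, Acot1 0.62 and the shared probe set 0.41. The highest wild-type array exceeded the lowest 2.74-fold for Angptl4, 2.77-fold for the shared probe set, 2.14-fold for Ucp3 and 2.10-fold for Acot1, against a median of 1.30-fold over all tested probe sets.

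**Figure D2:**
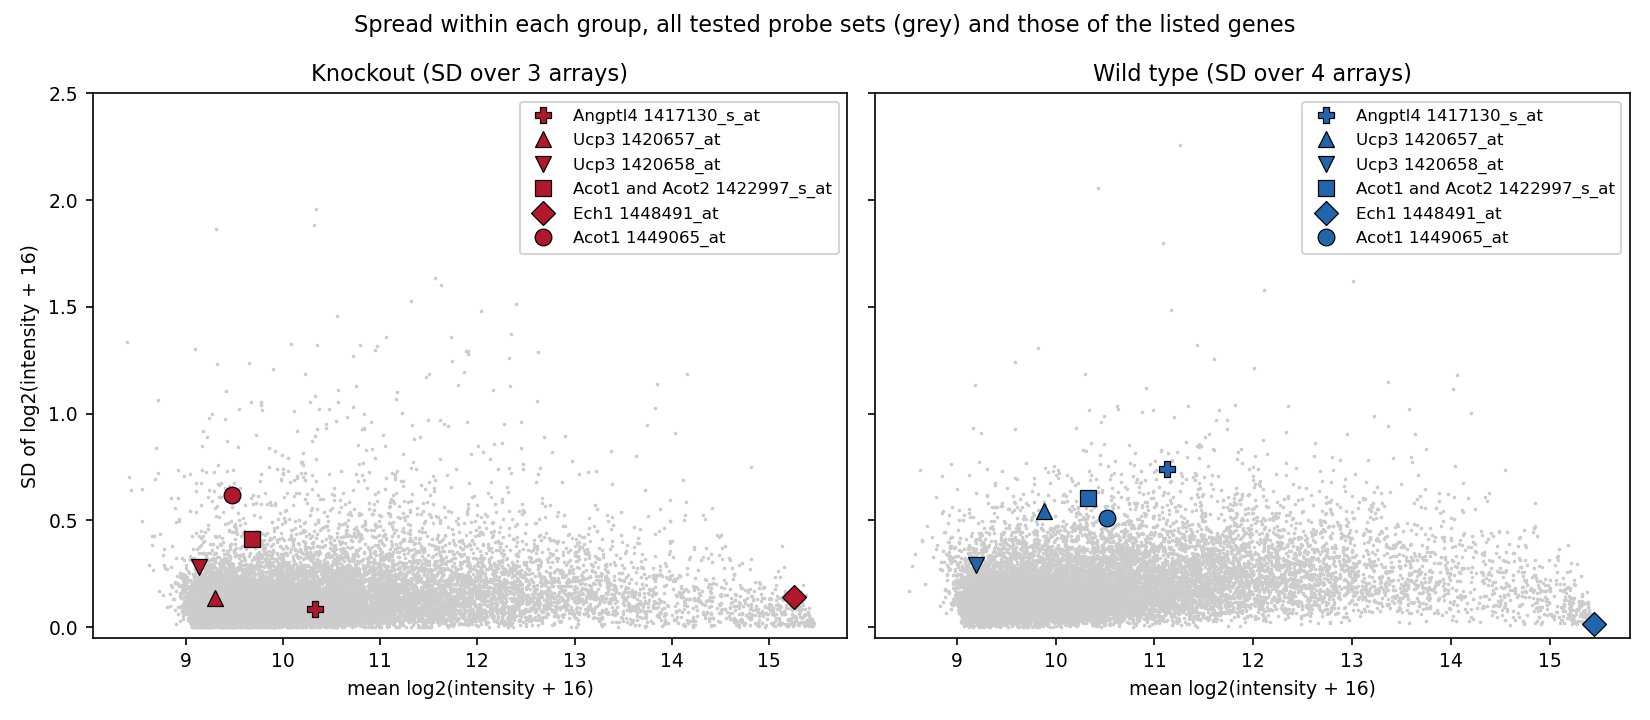
Standard deviation of log2(intensity + 16) within each group against the group's mean, knockout over 3 arrays on the left and wild type over 4 arrays on the right, with all tested probe sets in grey and the 6 tested probe sets of the listed genes marked. Angptl4 sits at 0.083 among knockout arrays and at 0.74 among wild-type arrays; 1 grey point in each panel lies above the axis limit of 2.5.

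The order of the wild-type arrays was set beside the hybridization day. The wild-type arrays of day 4 read below both other wild-type arrays for Angptl4, Ucp3 1420657_at, the shared probe set and Acot1, 4 of the 6 tested probe sets, against 24.2% of all tested probe sets. For Acot1 that order rests on a narrow gap, 1231 on M158 against 1237 on M128, and M125 stood far above the other 3. Day 4 also held the 2 arrays with the lowest Gapdh ratio, and M125 and M128 had more Myl7 than the day 4 arrays. Mouse, day, RNA quality, processing and atrial transcript cannot be told apart within the wild-type group, and their part in the spread was not tested.

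Day 1 alone held both groups. There knockout M140 minus wild-type M128 was -1.52 for Acot1, -1.17 for the shared probe set, -1.02 and -0.21 for the probe sets of Ucp3, -0.30 for Ech1 and -1.37 for Angptl4 on the log2 scale, each a difference of single arrays. Each was larger in size than the difference over all arrays. M140 read lowest of all arrays for each of these probe sets except that of Angptl4. Myl7 read 407 on M140 and 2926 on M128, and the part of atrial tissue was not tested. Without wild-type M23 and M158, Angptl4 differed by -1.44, Ucp3 1420657_at by -1.05, the shared probe set by -1.07 and Acot1 by -1.32 (adjusted p of 0.155 to 0.331 by limma). M23 and M158 read lowest of the wild type for these probe sets, so leaving them out had to enlarge each difference. Without knockout M10 and wild-type M125, the arrays with most Myl7, the same probe sets differed by -0.53, -0.46, -0.51 and -1.02 (adjusted p of 0.297 to 0.706). None passed the threshold under either choice.

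Among the other acyl-CoA thioesterases, of 14 listed, 10 were tested. None of them had an unadjusted p under 0.05 in either direction, against 5.4% of all 8869 tested genes lower and 6.77% higher. Their median log2 difference was -0.04, and that of all tested genes was -0.003. Acot8, the peroxisomal thioesterase, differed by -0.16 ± 0.08 (SE) and its knockout arrays lay below all wild-type arrays. Acot9, a mitochondrial one, differed by 0.36 ± 0.19 and Acot6, on its brightest probe set, by 0.14 ± 0.11. For Acot6 the mean log2 difference over its 2 tested probe sets was -0.03. Acot7, the brain acyl-CoA hydrolase, differed by -0.09 ± 0.22 and Acot13 by 0.06 ± 0.05. Their adjusted p by limma lay between 0.484 and 0.929. The contrast of Acot1 with these genes was not tested.

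Among the other inner-membrane carriers tied to proton leak, 5 of 6 were tested, none of them with an unadjusted p under 0.05, and with a median log2 difference of -0.06. Slc25a5, an adenine nucleotide translocase, differed by 0.20 ± 0.10 (SE; adjusted p = 0.462 by limma). Ucp1, the uncoupling protein of brown fat, read 653, 572 and 653 on the knockout arrays and 561, 681, 756 and 664 on the wild-type arrays, which overlap, and Slc25a30 differed by -0.07 ± 0.09. Slc25a4 is the heart form of the translocase. Its brightest probe set had reached the upper limit on each of the 7 arrays and gives no difference. Over its 4 tested probe sets the mean log2 difference was -0.086.

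Of 37 other genes known to be induced by fatty acids or PPAR-alpha agonists in heart, muscle or liver, 27 were tested, and 23 of them read lower on average on the knockout arrays, against 50.6% of all tested genes. Fabp3 and Lpl, counted among the 23, were read by probe sets that had reached the upper limit on each of the 7 arrays. Those probe sets carry no difference. For Lpl the mean log2 difference over its 2 tested probe sets was 0.087, opposite to the direction in which the gene was counted. At an unadjusted p under 0.05, 9 were lower and 0 higher, against 5.4% and 6.77% of all tested genes; 0 passed the adjusted threshold. The knockout arrays lay wholly below the wild-type arrays for 8 and above them for 0, against 4.89% and 5.29% of all tested genes. The median log2 difference was -0.27. Mlycd, Decr1 and Cpt2, which act in the oxidation of fatty acids, had the smallest p.

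Mlycd, the malonyl-CoA decarboxylase that relieves the block on mitochondrial entry, read 1809, 2023 and 1573 on knockout M4, M10 and M140, against 2293, 3326, 2922 and 3088 on M23, M125, M128 and M158 of the wild type. Its groups did not overlap. Of the day 4 arrays, M158 lay between M128 and M125, unlike for Angptl4. The other, M23, read lowest of the wild type, as for Angptl4. Pdk4, the pyruvate dehydrogenase kinase that spares glucose when fat is burned, read 15022, 6120 and 6608 on the knockout arrays and 7644, 36260, 28331 and 9657 on the wild-type arrays. For Pdk4, M125 and M128 again stood apart from M23 and M158, and knockout M4 lay above both M23 and M158. Plin2, the coat protein of lipid droplets, read 5127, 5146 and 4503 on the knockout arrays and 5308, 5754, 8414 and 5308 on the wild-type arrays, with M128 alone high. The wild-type arrays of day 4 lay below the other wild-type arrays for 9 of the 27 genes, against 23.6% of all tested genes.

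**Figure D3:**
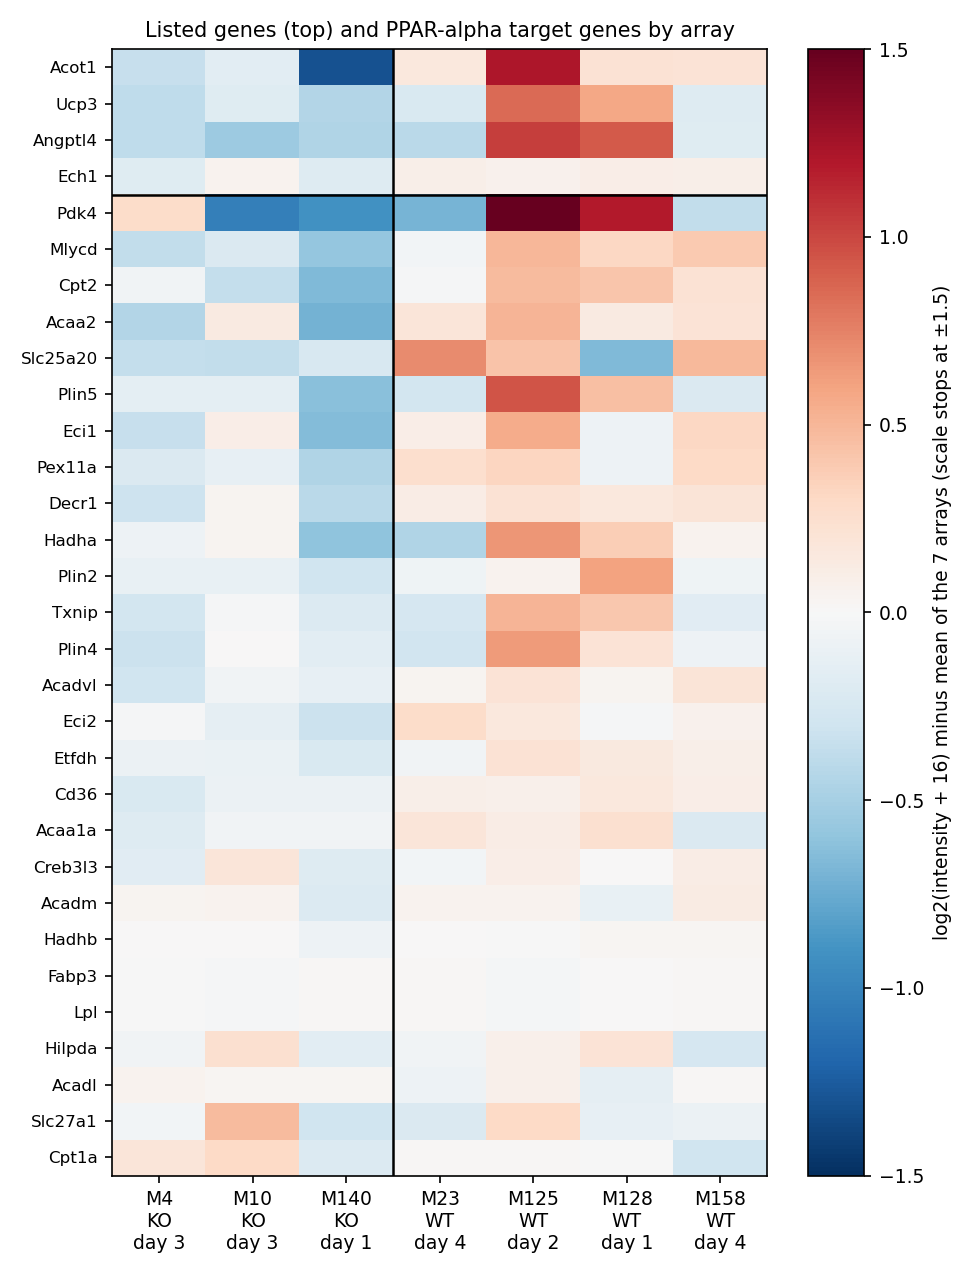
Deviation of log2(intensity + 16) from the mean of the 7 arrays, in red above and blue below, for the 4 listed genes with a tested probe set of their own and the 27 tested PPAR-alpha target genes (rows, each by its brightest tested probe set) on the knockout arrays (KO, left) and wild-type arrays (WT, right). Ucp3, Angptl4 and Pdk4 are highest on wild-type M125 and M128, while Acot1 is lowest on knockout M140 and highest on wild-type M125.

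**Figure D4:**
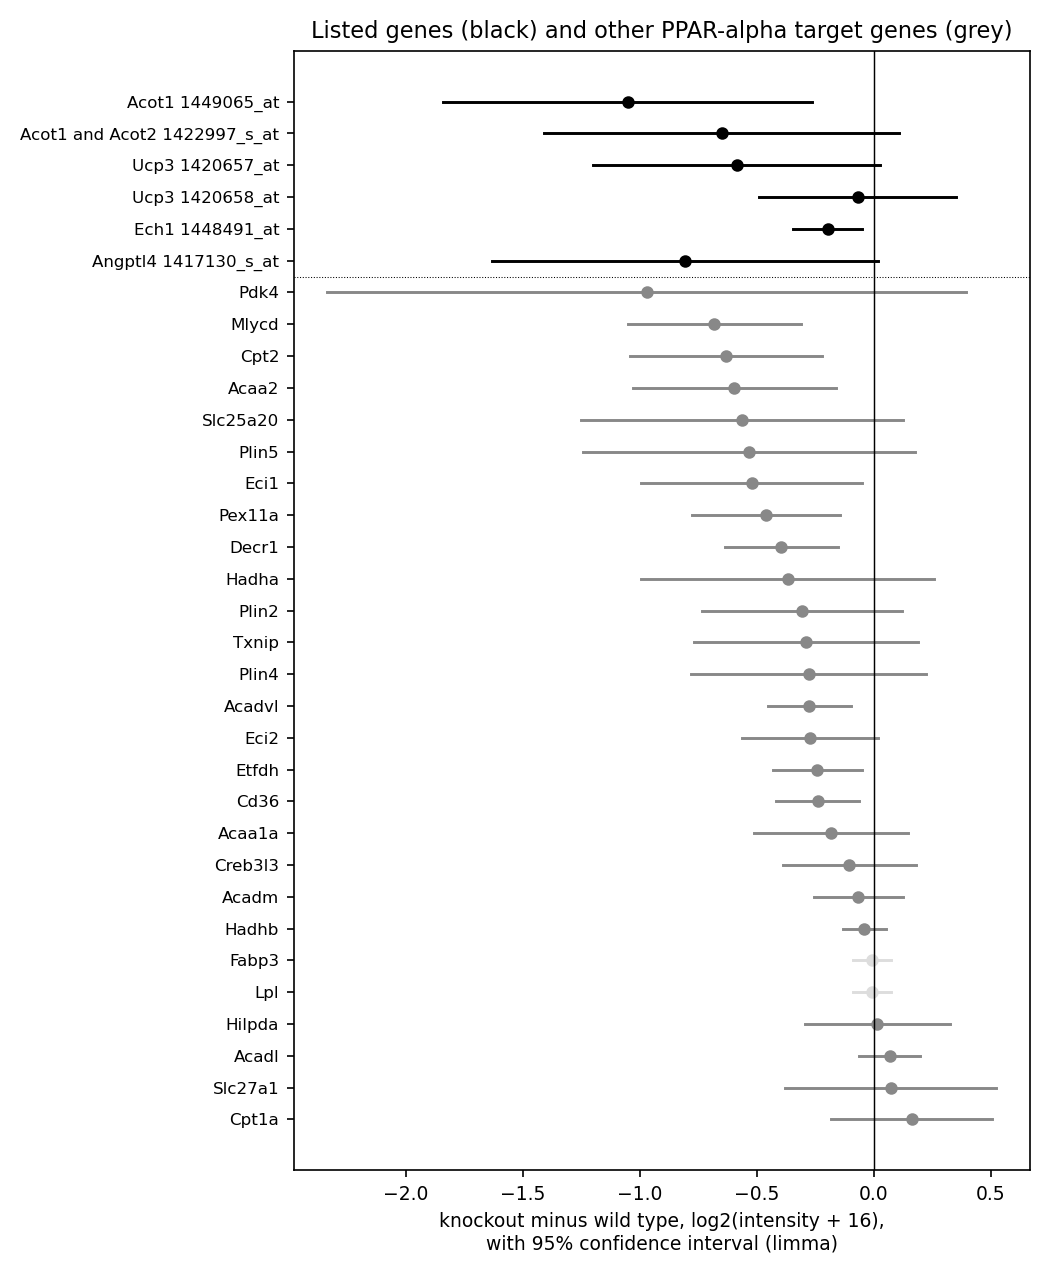
Knockout minus wild type in log2(intensity + 16) with 95% confidence intervals from limma for the 6 tested probe sets of the listed genes (black) and the 27 other tested PPAR-alpha target genes (grey, palest where all 7 arrays were at the upper limit). The intervals of Acot1 (-1.84 to -0.26) and Ech1 (-0.34 to -0.048) are the ones among the black bars that lie below 0.

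Of 17 receptors and cofactors of the pathway, 12 were tested, 2 were lower and 0 higher at an unadjusted p under 0.05, against 5.4% and 6.77% of all tested genes, and 0 passed the adjusted threshold. Ppara itself read 283, 352 and 352 on the knockout arrays and 369, 372, 352 and 370 on the wild-type arrays and was too dim to be tested. Ppargc1a, the coactivator PGC-1alpha, read 738, 833 and 1149 on the knockout arrays against 4126, 4237, 3351 and 3153 on the wild-type arrays on its brightest tested probe set (log2 difference -2.03, adjusted p = 0.0531 by limma). Over its 5 tested probe sets the mean log2 difference was -0.97. On the brightest one the wild-type arrays of day 4, at 4126 and 3153, spanned the other wild-type array M128. Rxrg, a retinoid X receptor of muscle, differed by -0.36 ± 0.13 (SE; adjusted p = 0.341), with knockout arrays below all wild-type arrays, and Ppargc1b by -0.37 ± 0.19 (adjusted p = 0.502).

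The genes whose pattern over the 7 arrays was most like that of each member were found by Pearson's r on the log2 scale among 8868 other genes, as a description over 7 arrays, in which single arrays weigh heavily. For Acot1 they were Sema4f (0.995), Snx22 (0.983) and Txnrd2 (0.974). For Ucp3 they were Pex19 (0.996), Il27ra (0.978) and Txnip (0.975), of which Pex19 imports peroxisomal membrane proteins and Txnip is on the list of PPAR-alpha target genes above. Angptl4 was matched best by Hikeshi (0.990), Cdc34 (0.990) and Fuom (0.982). Ech1 was matched by Hopx (0.977), Decr1 (0.974), which like Ech1 serves the oxidation of unsaturated fatty acids, and Cln6 (0.973). The shared Acot1 and Acot2 probe set was matched by Stat5a (0.986), Snai3 (0.985) and Tsga8 (0.978).

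Markers of other cells that could carry these transcripts were read on the same arrays. Bulk tissue does not tell fewer cells of a type from less RNA per cell. Of 7 named adipocyte markers 4 were tested, none of them with an unadjusted p under 0.05. The summed intensity of the 7 ran from 38582 to 43558 on the knockout arrays and from 40040 to 46466 on the wild-type arrays. Most of it was Fabp4, at 33460 to 37432 on the knockout arrays and 35210 to 41822 on the wild-type arrays. The defining markers Adipoq, Cidec and Lep were too dim to be tested. Of 9 macrophage markers 4 were higher at an unadjusted p under 0.05, against 6.77% of all tested genes (summed intensity 30281 to 39557 on knockout and 22945 to 35992 on wild-type arrays). Skeletal muscle, where Ucp3 is abundant, was represented by 6 markers, of which Acta1, also a gene of the stressed ventricle, was the one higher at that p, while Myh1, Myh4 and Tnnt3 were too dim to be tested. The atrial markers Myl7, Sln and Myl4 summed to 1997 to 34092 on the knockout arrays and 2632 to 41444 on the wild-type arrays. The 7 endothelial markers summed to 14517 to 17445 on the knockout arrays and 13354 to 17675 on the wild-type arrays. The 6 fibroblast markers summed to 19421 to 57707 on the knockout arrays and 24848 to 37968 on the wild-type arrays. No gene of either list had an unadjusted p under 0.05. Of the red blood cell markers 2 were tested, Alas2 and Hbb-b2, and 2 were higher at that p, against 6.77% of all tested genes. The part of these cells in the values of the listed genes was not tested.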

How the data were processed

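The data were the submitters' processed values of 7 MOE430A arrays. Intensities were deposited by the authors on a linear scale; the sources used here do not give the software, background correction or scaling. From the values, arrays had been brought to a similar level, the lowest value per array was 86.5 to 92.3 and each array stopped at an upper limit. A log2 difference understates a change at that limit, and with the added offset also that of a dim probe set. The scanner sheets, other information with no measurement per the file headers, gave hybridization day and chip lot. Per its sheet, the array of wild-type M23 combines 2 rounds of processing.

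Control probe sets (64) were left out. The platform table named 1 gene for 20380 probe sets, several for 691 and none for 1555, and 20351 of the named matched the GRCm38.p6 gene table, which changed no symbol. Values were taken as log2(intensity + 16). A probe set was tested if it exceeded the 40th percentile of its array on at least 3 arrays. Groups were compared with limma 3.58.1 in R 4.3.3 (lmFit, eBayes with trend, two-sided), p-values adjusted by Benjamini-Hochberg over the 13836 probe sets tested, and a threshold of 0.05. Single values were also compared by exact two-sided permutation. A gene of a list was read by its brightest tested probe set and counted from the same fit. The fit was tested on simulated data before use. The genes, lists and tests were chosen with earlier results of these data known. Named from each list were the 3 genes with the smallest p and Pdk4, Plin2, Acot7, Acot13, Slc25a4, Ppara and Ppargc1a; 1 further gene of that rule is not reported here. Mouse numbers are not shared between groups, so nothing is paired. The number of arrays limits the precision. Alternatives were the offset (1 or 64), quantile normalization, normexp, the filter, a threshold of 0.10, array weights, no trend in eBayes, day as a block and leaving out arrays.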

Additional observations from a re-analysis of the deposited data

Results flagged for a closer look

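Among the 4 wild-type arrays, M125 stood apart from the other 3 for 2 of the 8 probe sets, by the gap to the nearest array as a share of the group's range on the log2 scale. For Acot1 1449065_at, where M125 read 2493 and the others 1187 to 1237, the share was 0.944. For Ucp3 1420658_at, where M125 read 776 and the others 495 to 526, it was 0.863. Both exceed Dixon's critical value for 4 arrays at the 95% level, a level at which chance alone flags about 1 in 20 groups. M125 was the 1 array of hybridization day 2 and had the second highest Myl7 signal of all arrays (16097); the part of either was not tested.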

How the results depend on the processing

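Over 111 values of the 6 tested probe sets under the alternatives, 109 kept their negative direction and 1, Ech1 with array weights, passed an adjusted p of 0.05. Changing the filter or the trend setting leaves a log2 difference as it was, so those values could not change direction. The exceptions in direction were Ucp3 1420658_at without 1 array, between -0.22 and 0.076. The number of all tested probe sets past the threshold was 1 with the 60th percentile filter, 619 with array weights, 21 at an adjusted p under 0.10, 1 with day as a fixed block, 2 without knockout M10 and wild-type M125, 1 without wild-type M23 and M158, and 0 to 79 without 1 array. Of the listed genes' probe sets, 1 passed with array weights. The number of them with an unadjusted p under 0.05 was 1 without trend, 4 with day as a fixed block, 5 with day as a random block, 4 without M23 and M158, and 0 to 5 without 1 array. PPAR-alpha target genes lower at that p numbered 6 to 12 under all alternatives. The shares of all tested probe sets and genes at that p were not counted under the alternatives, so these counts stand without a background. The causes were not tested. As a fixed block, day leaves M140 against M128 alone; as a random block it also uses arrays of other days. Both Ucp3 probe sets gave no value with the 60th percentile filter, and 1420658_at none without M10 and M125. No paired analysis was possible because the groups share no mouse number. The upper limit bounds Ech1, and low signal bounds Acot2.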
